A study of Mus musculus with 3 samples.

Results

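Fibroblasts and pericytes are the matrix-making and vessel-wrapping cells of the kidney interstitium. Here they are the barcodes holding 1672 or more unique molecular identifiers (UMIs) and 200 or more genes, with no more than 50% of UMIs from mitochondrial genes, in which at least 3 of 6 stromal genes (Col1a1, Col1a2, Col3a1, Dcn, Pdgfrb and Pdgfra) were detected. A member also held at most 1 UMI of the mesothelial genes Wt1, Upk3b and Msln, at most 1 UMI of the immune and endothelial genes Ptprc, Tyrobp and Pecam1, and at most 2 UMIs of the tubule genes Lrp2, Slc34a1 and Slc12a1. This rule found 304 members among 48404 barcodes past the same filters on UMIs, genes and mitochondrial share, out of 73281 deposited barcodes. Kidneys were taken 14 days after folic acid (FA), a tubule toxin used as a model of acute injury that passes into fibrosis, from mice labelled 6 to 8 weeks old. The knockout group was 2 Aoah-/- mice, which lack acyloxyacyl hydrolase in every tissue, an enzyme that inactivates bacterial lipopolysaccharide, and the comparison group was 1 wild-type (WT) mouse from the same breeding. All 3 mice received FA, so every level below is a level in injured kidney. Each library came from 1 mouse, after collagenase digestion and a strainer, and was a 10x Genomics 3′ single-cell library.

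Interstitial fibroblasts secrete the fibrillar collagens, the proteoglycan decorin and the glycoproteins that build the matrix between tubules. Adventitial fibroblasts, which carry Pi16, Dpp4 and Cd34, sit in the outer sheath of larger vessels, while pericytes and vascular smooth muscle cells wrap capillaries and arterioles and carry Rgs5, Notch3 and contractile proteins. Myofibroblasts are the activated matrix-making cells of a scar, and are usually recognised by smooth muscle actin (Acta2) and periostin (Postn).

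With 1 WT mouse the spread between WT mice could not be estimated, and no test across mice is reported. Values are given for Aoah-/- mouse 2, Aoah-/- mouse 3 and WT mouse 3, in that order, with exact 95% intervals that cover counting error only. Levels are UMIs per 1000000 UMIs of the members of a library (CPM). They are not divided by gene length, since a 3′ library gives about 1 tag per transcript, and they are compared between libraries, not between genes. A difference is the mean of the Aoah-/- mice against the WT mouse on a log2 scale with 1 CPM added, with the SD between the Aoah-/- mice. A gene is called past 2-fold when that mean is at least 2-fold above or below WT and both Aoah-/- mice lie on the same side.

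Members numbered 26 and 65 in the Aoah-/- mice and 213 in the WT mouse. They held 158720, 397084 and 1417017 UMIs, so 3 UMIs, the limit that a count of 0 allows, correspond to 18.9, 7.56 and 2.12 CPM. The Aoah-/- values are therefore much coarser than the WT values. Median UMIs per member were 6450.5, 5321 and 6529, median genes 2340.5, 2119 and 2231, and median mitochondrial share 7.16%, 5.86% and 4.87%, so depth per cell differed little while the number of cells differed several fold. No member barcode was shared by any pair of libraries.

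Aoah itself (chr13:20794113-21036617, plus strand, GRCm38 as for all positions below) gave 0, 1 and 0 UMIs in the members. In all other barcodes it stood at 6.79, 6.20 and 18.6 CPM, lower in both knockout libraries. The deleted part of the gene is not given in the sources used here, and a 3′ tag outside it checks nothing, so the low level only does not contradict the labels.

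The 6 genes of the rule were detected unevenly. Col1a1 and Col1a2, the chains of type I collagen, were found in 93.8% or more of the members of each library. Dcn, decorin, was found in 69.2%, 72.3% and 99.1% of members, and Pdgfrb, the mural PDGF receptor, in 69.2%, 61.5% and 29.1%. Pdgfra, the fibroblast PDGF receptor, was found in 57.7%, 55.4% and 85.9%. These genes chose the members, so the pattern is a description of who was chosen: a larger share of members with Pdgfrb in the Aoah-/- libraries, and a larger share with Dcn and Pdgfra in the WT library. At the edge of the rule, 6, 13 and 3 members had exactly 3 of the 6 genes, and 11, 20 and 11 further barcodes within the limits had exactly 2.

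The limit on mesothelial genes cut far more cells from the WT library. Of the barcodes with 3 or more stromal genes (42, 136 and 489), 3, 5 and 233 exceeded it. Among the 233 WT barcodes, 218 had a Wt1 UMI, 97 had neither Upk3b nor Msln, and 172 had 3 or more of 5 adventitial markers. Dcn stood at 12670 CPM in them and Pi16 at 1264 CPM. Dcn and the mesothelial genes chose these barcodes, while Pi16, which did not, was lower in them than the 4551 CPM of the WT members. A count of mesothelial cells, with 2 or more of 6 mesothelial markers, gave 2.05%, 0.533% and 1.48% of barcodes. It set no limit on stromal genes, so it could take in barcodes cut here. Of the 3, 5 and 233, 2, 4 and 152 were within the other limits. The part of kidney surface tissue in the WT values was not tested.

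Fibroblasts and pericytes were scarcer in both Aoah-/- libraries. Their share of barcodes past the filters was 0.168% (interval 0.110 to 0.247) and 0.330% (0.255 to 0.421) in the Aoah-/- mice and 1.605% (1.40 to 1.83) in the WT mouse. The Aoah-/- mean was 1.36 points lower (-1.36), against an SD of 0.114 points between the Aoah-/- mice. The intervals did not overlap. Over the same filters endothelial cells made up 4.77%, 5.24% and 4.12% of barcodes, so another cell type of the vessel wall and interstitium did not show this order.

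The shortage lay in cells with adventitial markers. Members with 3 or more of Pi16, Dpp4, Cd34, Ly6a and Clec3b numbered 6, 5 and 198, or 0.0389% (0.0143 to 0.0846), 0.0254% (0.00824 to 0.0592) and 1.49% (1.29 to 1.71) of barcodes. The remaining members numbered 20, 60 and 15, or 0.130% (0.0791 to 0.200), 0.305% (0.233 to 0.392) and 0.113% (0.0633 to 0.186). For these the Aoah-/- mean was 0.104 points above WT, less than the SD of 0.124 points between the Aoah-/- mice, and the WT interval overlapped that of Aoah-/- mouse 2. Members with exactly 2 of the 5 markers numbered 2, 5 and 4 and those with exactly 3 numbered 3, 3 and 14. The small Aoah-/- counts therefore depend on the limit: with 2 or more markers the members numbered 8, 10 and 202. All 5 markers were found in 1, 0 and 137 members.

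Contractile cells showed no such gap at this depth. Members with 3 or more of the smooth muscle markers Myh11, Tagln, Cnn1, Actg2, Des and Lmod1, a set that leaves out Acta2, numbered 3, 9 and 4. That was 0.0194% (0.00401 to 0.0568), 0.0457% (0.0209 to 0.0867) and 0.0301% (0.00821 to 0.0772) of barcodes, with all intervals overlapping. These counts are small, and a difference of several fold would not have been detectable.

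**Figure D1:**
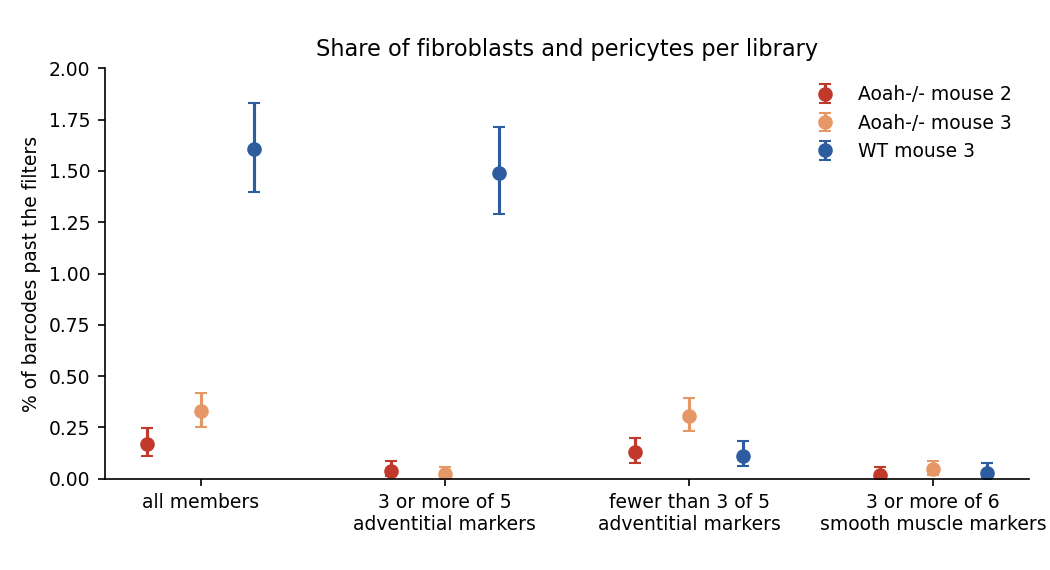
Share of fibroblasts and pericytes among barcodes past the filters (y axis, %), for all members and for members grouped by marker genes (x axis); points are libraries and bars are exact 95% binomial intervals. The WT library stands at 1.605% for all members and 1.49% for members with 3 or more of 5 adventitial markers, far above both Aoah-/- libraries, while in the other groups the WT interval overlaps that of at least 1 Aoah-/- library.

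The members' own profile was that of matrix-making cells. Against all other barcodes of the same library, the genes with the largest ratio were Col3a1 (mean log2 ratio over the 3 libraries 7.69, SD 1.67), Col1a2 (7.45) and Col1a1 (7.44), all of which the rule had used. Among genes it had not used, Mgp (matrix Gla protein, an inhibitor of calcification) followed at 7.42, then Bgn (biglycan, 6.14), Serping1 (the C1 inhibitor, 6.02) and Clec3b (tetranectin, 5.95). Sparc, a collagen-binding glycoprotein, varied less in this ratio, at 5.29 with an SD of 0.18, as did C1s1, a protease of the complement C1 complex (5.04, SD 0.07), and Col6a1 (5.05, SD 0.16). These SDs are of the ratio, not of the level: C1s1 itself stood at 403, 383 and 985 CPM in the members, and the 6 rule genes summed to 12.6, 19.6 and 406 CPM in the other barcodes, which in WT hold the stromal cells removed by the limits. Mgp (SD 2.03), Bgn (1.76) and Timp1 (2.29) belonged to the profile on average yet differed greatly between libraries. Fbn1, Fstl1, Igfbp6, Gsn, Col6a3, Col15a1, Col5a1, Lhfp, Cygb, Sfrp4 and Tagln completed the list with Dcn and Pdgfra. Pdgfra, of fibroblasts, and Pdgfrb, strongest in mural cells, were found together in 8, 24 and 55 members, a description only, since both are genes of the rule.

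Clustering the members by their own variable genes gave 7 subclusters, used here only to describe how cells varied. At a lower resolution the members formed a Pi16-high cluster of 207 members, which held subclusters 1, 3, 4 and 5, and a second cluster of 97. The clusters were built from the same genes that describe them, and with 1 WT library a cluster mostly of WT cells may be that library rather than a kind of cell. Subclusters 1, 3 and 4 were almost wholly WT cells (101, 49 and 33 members) and shared high Pi16 and Dcn. Subcluster 1 was led by Sult1e1, Cxcl13, Hp and Penk, subcluster 3 by Akr1c18, Dmkn, Krtdap, Has1, Ccl2 and Ptgs2, and subcluster 4 by hemoglobin genes. Subcluster 5 (24 members, from all 3 libraries) was led by Fmo2, Cxcl12, Sfrp4 and Apod. Subcluster 2 (61 members, 12, 44 and 5 by library) was led by Cxcl14, Spp1, Ptn, Ltbp2, Aldh1a2, Tnc, Mgp and Timp1. Subcluster 6 (23 members) was smooth muscle-like, led by Rgs5, Myh11, Acta2, Cnn1, Ren1, Actg2 and Notch3. Subcluster 7 (13 members) was led by Atp6v1g3, Krt18 and Krt8, genes of collecting duct epithelium, with a median mitochondrial share of 24.7%, and stayed unnamed.

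**Figure D2:**
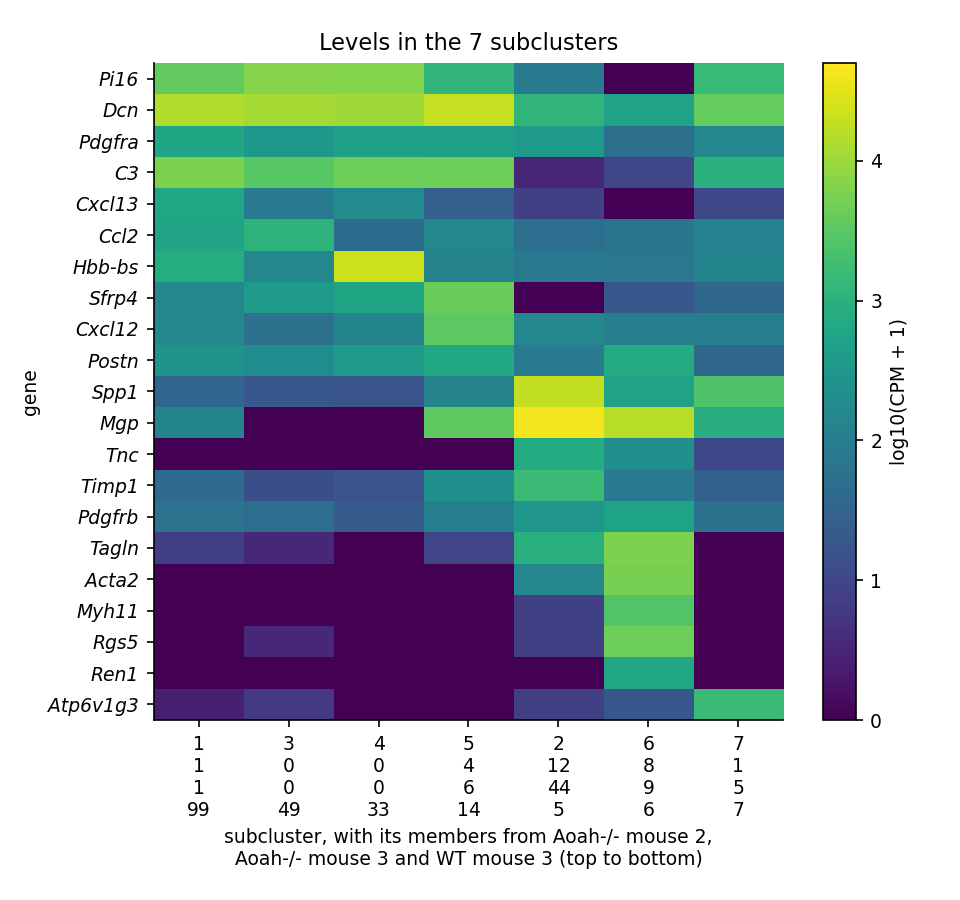
Level of 21 genes (rows) in the 7 subclusters of the members (columns), as log10 of CPM plus 1, with the number of members from each library under each column. Pi16 and Dcn are high in subclusters 1, 3 and 4, Mgp, Spp1, Tnc and Timp1 in subcluster 2, and Acta2, Tagln, Myh11 and Rgs5 in subcluster 6, while Postn is spread over all columns.

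Acta2 (chr19:34241090-34255590, minus strand) encodes smooth muscle actin, the thin-filament protein used to mark smooth muscle and myofibroblasts. The 250 bases before its start in the RefSeq promoter set (GRCm38.p6, chr19:34255374-34255623, minus strand) are shown because boxes of the type bound by serum response factor, which many contractile genes share, lie close to the start. Capitals mark matches to CCNNNNNNGG with at most 1 of the 6 inner letters being C or G.

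Acta2: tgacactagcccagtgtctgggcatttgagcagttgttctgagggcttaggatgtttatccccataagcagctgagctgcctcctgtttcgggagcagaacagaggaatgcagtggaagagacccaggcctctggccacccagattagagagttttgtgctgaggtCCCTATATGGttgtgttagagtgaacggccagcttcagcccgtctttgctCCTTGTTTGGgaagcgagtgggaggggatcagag

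The first bases of these boxes lie 84 and 34 bases before the start. Of 32851 promoters of the same length, 8.59% held 1 or more such boxes on either strand and 0.670% held 2 or more. A match is a description of the letters and not a measured binding site.

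Acta2 stood at 1273 CPM (1103 to 1461) and 798 CPM (713 to 891) in the Aoah-/- members and at 103 CPM (87.0 to 121) in the WT members. In all other barcodes it stood at 5.96, 9.10 and 5.06 CPM. Both Aoah-/- libraries were far above WT, by 3.32 on the log2 scale with an SD of 0.48. Those levels rested on a handful of cells. The 202, 317 and 146 UMIs of Acta2 came from 9, 18 and 7 members, and the single highest member held 77.7%, 46.1% and 33.6% of them. The 16 members with 3 or more of the 6 other smooth muscle markers held 191, 285 and 119 of those UMIs. Within these 16 cells Acta2 stood at 9632, 5650 and 5863 CPM, a difference of 0.38 on the log2 scale with an SD of 0.54. In the smooth muscle-like subcluster (8, 9 and 6 cells), which Acta2 helps to lead, both Aoah-/- mice were above WT. It stood there at 5391 (4660 to 6203), 6480 (5749 to 7277) and 3884 CPM (3217 to 4647), a difference of 0.61 with an SD of 0.19.

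No member with 3 or more adventitial markers held an Acta2 UMI, in any library. In the other members Acta2 stood at 1792, 877 and 1673 CPM, so that WT lay between the Aoah-/- mice (log2 difference -0.33, SD 0.73). The order of all members and the order within this group therefore differed, and the 198 adventitial WT cells entered only the former. As cells per library, Acta2-positive members made up 0.0583%, 0.0914% and 0.0527% of barcodes past the filters.

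As a share of members, and with every member thinned to 1672 UMIs, Acta2 was found in 26.9% (11.6 to 47.8), 15.4% (7.63 to 26.5) and 1.41% (0.291 to 4.06). Unthinned, the shares were 34.6%, 27.7% and 3.29%. Proximal tubule cells, which should lack the gene, gave thinned shares of 0.121%, 0.611% and 0%, at median depths of 8052, 4025.5 and 8940 UMIs before thinning, and the members' shares were above these. Endothelial cells gave 0.814% (0.299 to 1.76), 1.36% (0.744 to 2.27) and 1.10% (0.404 to 2.37) and mesothelial cells 0.633%, 1.90% and 4.08%. The WT interval of members, on 3 cells, overlapped that of WT endothelial cells and that of WT mesothelial cells (1.78 to 7.88). Both Aoah-/- shares lay above both cell types. Of 34 members with Acta2, 20 also had Rgs5, Notch3 or Myh11, genes of pericytes and smooth muscle, and 14 had none of these. Acta2 and Postn, the pair that marks myofibroblasts, were found together in 12 members (2, 7 and 3).

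**Figure D3:**
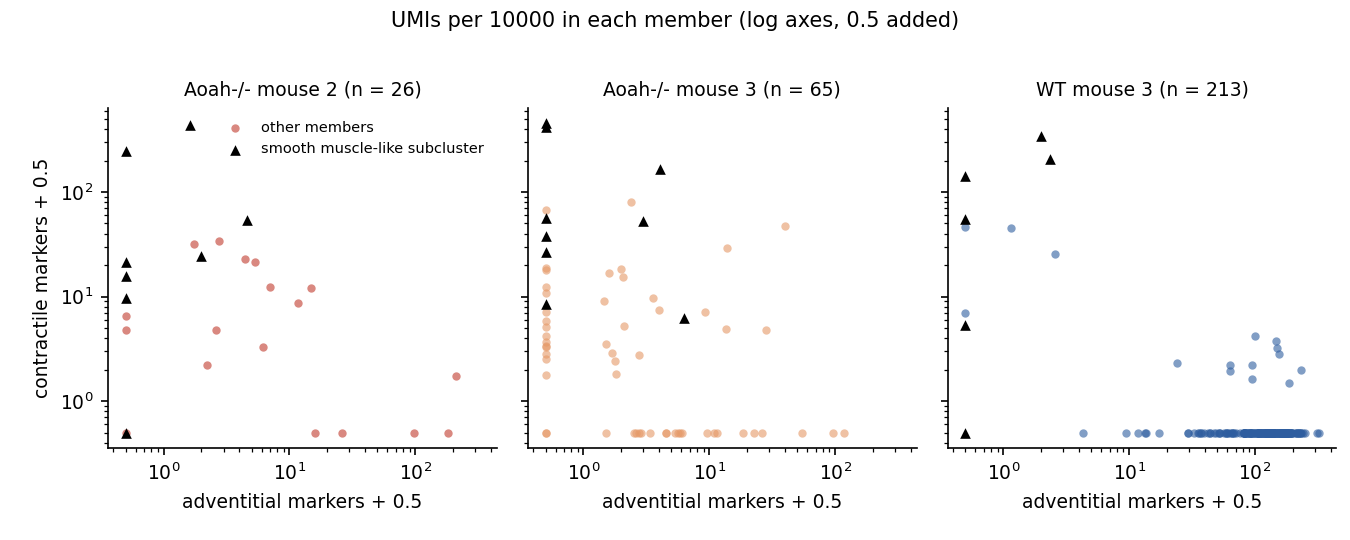
Each point is 1 member, by its UMIs of 5 adventitial markers (x axis) and 7 contractile markers (y axis) per 10000 UMIs, on log axes with 0.5 added, in 1 panel per library; black triangles are the smooth muscle-like subcluster. Most of the 213 WT members lie low at the right, with a median of 124 adventitial and 0 contractile UMIs per 10000, and the Aoah-/- members spread along the left side, with medians of 2.19 and 1.59 adventitial UMIs.

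The contractile genes had the order of Acta2 over all members. Of 15 contractile genes past the filter of 50 CPM, 14 were at least 2-fold higher in the Aoah-/- mean and none was lower, where 13.1% of all 3478 genes past the filter were higher and 12.4% lower. Their median log2 difference was 2.41, against 0.07 over all genes past the filter. Tagln (transgelin, an actin-binding protein) stood at 1537, 1458 and 191 CPM (2.96, SD 0.05). Myh11 (smooth muscle myosin) stood at 662, 199 and 80.5 CPM, with a wide gap between the Aoah-/- mice (2.40, SD 1.22). Des (desmin, an intermediate filament) stood at 176, 176 and 16.2 CPM. Smtn (smoothelin, of contractile smooth muscle) missed 2-fold at 0.97. In members with fewer than 3 adventitial markers Tagln and Myh11 turned, as Acta2 did in its mean. There Tagln stood at 1996, 1601 and 3083 CPM (-0.78, SD 0.22) and Myh11 at 931, 218 and 1306 CPM (-1.18, SD 1.48). The smooth muscle-like subcluster made up 8, 9 and 6 of the 20, 60 and 15 cells of this group. Within the 16 cells with 3 or more smooth muscle markers Tagln was higher in both Aoah-/- mice, at 6607, 7255 and 5715 CPM (0.28, SD 0.10). Myh11 stood at 5295, 1526 and 5617 CPM there (-0.72, SD 1.27). Both genes helped to choose these 16 cells. In the smooth muscle-like subcluster Tagln stood at 4285, 8003 and 5026 CPM (0.29, SD 0.64). Myh11 stood at 2903, 1728 and 3721 CPM there (-0.68, SD 0.53). Summed over the 16 listed genes the level in all members was 9381, 6669 and 1435 CPM.

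Pericyte and mural genes had the same order. Of 12 past the filter, 11 were higher past 2-fold and 1 lower, with a median of 3.43. Rgs5, a brake on G protein signalling that marks pericytes, stood at 1663, 531 and 23.3 CPM (5.50, SD 1.16). Its 264, 211 and 33 UMIs came from only 5, 6 and 5 members. Notch3, the mural Notch receptor, stood at 94.5, 139 and 7.76 CPM (3.75, SD 0.39), and Pdgfrb at 340, 285 and 68.5 CPM (2.17, SD 0.18). The subunits of the nitric oxide receptor guanylyl cyclase, Gucy1a3 (372, 640 and 26.1 CPM) and Gucy1b3 (101, 116 and 7.76 CPM), were also higher in both Aoah-/- mice. Ebf1 was the 1 listed gene lower past 2-fold, at 290, 189 and 505 CPM. Within the 16 cells with smooth muscle markers Rgs5 still stood at 11145, 4163 and 838 CPM (3.19, SD 1.00). In these 3, 9 and 4 cells it kept its order, unlike Acta2. In the smooth muscle-like subcluster, which both genes help to lead, both were higher in both Aoah-/- mice, Rgs5 at 7298, 4729 and 1044 CPM (2.52, SD 0.44). Pdgfrb took part in choosing the members.

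Renin (Ren1), the enzyme that starts the angiotensin cascade, came to 1, 71 and 0 UMIs, and 2 members of Aoah-/- mouse 3 held all 71. Serpine2, a serine protease inhibitor found in mesangial cells, stood at 1285, 1400 and 108 CPM (3.62, SD 0.09). Of 5 mesangial and renin genes past the filter, 4 were higher and 1 lower past 2-fold.

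Postn (chr3:54361109-54391037, plus strand) encodes periostin, a secreted matrix protein of scar and injured tissue. The RefSeq promoter set gives a pair of starts, and the one next to the annotated gene (GRCm38.p6, chr3:54360857-54361106, plus strand) is shown because it differs from that of Acta2 in these letters: it holds a TATA box, TATAAA, in capitals, and no match to the serum response box in this window.

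Postn: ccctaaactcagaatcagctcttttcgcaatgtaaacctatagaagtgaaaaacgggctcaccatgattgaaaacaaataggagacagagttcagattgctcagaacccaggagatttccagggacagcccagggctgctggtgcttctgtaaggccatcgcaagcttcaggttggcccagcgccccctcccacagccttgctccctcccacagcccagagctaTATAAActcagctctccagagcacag

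The TATA box lies 26 bases before the start, and 7.59% of the promoters held this sequence on either strand.

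Postn did not follow Acta2. It stood at 454 CPM (355 to 571), 237 CPM (191 to 290) and 242 CPM (217 to 269) in the members, and at 0.365, 0.139 and 2.17 CPM in all other barcodes. The 2 Aoah-/- mice lay on either side of WT. Their mean was 0.51 higher on the log2 scale, less than the SD of 0.66 between them, and without Aoah-/- mouse 2 the difference was -0.03. In that mouse 1 member held 38 of the 72 UMIs (52.8%), while in the WT mouse 107 members shared 343 UMIs and the highest held 4.96%. Thinned to 1672 UMIs, Postn was found in 19.2% (6.55 to 39.4), 13.8% (6.53 to 24.7) and 24.9% (19.2 to 31.3) of members, with all intervals overlapping. Unthinned the shares were 23.1%, 16.9% and 50.2%, and proximal tubule cells gave 0%, 0.0499% and 0.0145% after thinning.

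Postn was found in cells of very different kinds. Of its 509 UMIs, 32.4% lay in subcluster 1, 14.9% in subcluster 3, 13.8% in subcluster 4, 14.3% in subcluster 5, 16.7% in the smooth muscle-like subcluster and 7.07% in subcluster 2. Such shares also depend on how many cells a subcluster holds. By level, Postn stood at 908, 1388 and 1084 CPM in members with 3 or more smooth muscle markers (0.08, SD 0.43). Acta2 had 90.1% of its 665 UMIs in the smooth muscle-like subcluster and 9.92% in subcluster 2. Of the 124 members with Postn, 102 also had Pi16. In members with fewer than 3 adventitial markers Postn stood at 160, 230 and 275 CPM (-0.50, SD 0.37), with both Aoah-/- mice below WT, and in those with 3 or more at 1175, 310 and 240 CPM (1.63, SD 1.36), where the Aoah-/- values rest on 6 and 5 cells.

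Of 11 myofibroblast genes past the filter, Acta2, Postn and Tagln among them, 7 were higher past 2-fold and none lower. Col1a1, the most abundant of the list, took part in choosing the members. Tnc (tenascin C, a matrix protein of wounds) stood at 454, 660 and 21.9 CPM (4.61, SD 0.38), Timp1 (an inhibitor of matrix proteases) at 1103, 1277 and 58.6 CPM (4.32, SD 0.15) and Col12a1 at 296, 229 and 50.1 CPM (2.37, SD 0.26). Fn1 (fibronectin) was lower in both Aoah-/- mice, at 1355, 1360 and 2344 CPM, without reaching 2-fold. Lox, which cross-links collagen, was level at 120, 146 and 131 CPM. Cthrc1, a marker of scar-forming fibroblasts, came to 6.30, 12.6 and 1.41 CPM, Lrrc15 to 0, 1 and 0 UMIs, and Fap (fibroblast activation protein) to 6.30, 20.1 and 36.0 CPM, all below the filter.

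Of 6 fibrillar collagens past the filter 1 was higher past 2-fold and 1 lower, with a median of 0.54. Col1a1 stood at 2363, 5639 and 1756.5 CPM (1.19, SD 0.89). A single member of Aoah-/- mouse 3 held 589 of its 2239 Col1a1 UMIs (26.3%). Col3a1 stood at 3094, 7490 and 3120 CPM, so Aoah-/- mouse 2 and WT did not differ beyond counting error. Col1a1, Col1a2 and Col3a1, among these 6, took part in choosing the members. Among 13 other collagens 8 were higher and 1 lower past 2-fold, with a median of 1.66. Col15a1, a collagen of the zone next to basement membranes, stood at 977, 1090 and 93.9 CPM (3.45, SD 0.11), Col4a2 of the basement membrane at 718, 728 and 138 CPM (2.38, SD 0.01) and Col8a1 of vessel walls at 353, 196 and 5.65 CPM (5.37, SD 0.60). Col14a1, which binds to collagen fibrils, was lower at 378, 327 and 793 CPM (-1.17, SD 0.15).

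Matrix glycoproteins went both ways, with 8 of 23 higher, 6 lower and a median of 0.18. Mgp stood at 31559, 32326 and 1953 CPM (4.03, SD 0.02), the most abundant gene of the list. It was found in 84.6%, 89.2% and 17.8% of thinned members and in 0.450%, 3.49% and 0.261% of thinned proximal tubule cells. Igfbp7 (5393, 6679 and 1050 CPM), Emilin1 (378, 476 and 54.3 CPM) and Spon1 (410, 451 and 40.2 CPM) lay in the same direction. Fbn1 (fibrillin 1, of elastic microfibrils) was lower at 454, 337 and 1192 CPM, as were the basement membrane genes Nid1 (416, 360 and 1562 CPM) and Lamb1 (176, 146 and 404 CPM). Of 8 proteoglycans 1 was higher, Bgn at 2520, 2901 and 359 CPM (2.92, SD 0.14), and Dcn and Ogn were lower, at 4001, 2463 and 12141 CPM (-1.91, SD 0.49) and 176, 123 and 1236 CPM (-3.03, SD 0.36). Dcn took part in choosing the members. In members with fewer than 3 adventitial markers Bgn differed by 0.16 and Dcn by -1.96, and in those with 3 or more Bgn by 3.26 and Dcn by -0.08. Of 13 genes of collagen processing, Plod1 and Fkbp10 were higher and none lower. Of 13 matrix proteases and inhibitors 3 were higher and 3 lower, with Timp1 and Timp2 opposed: Timp2 stood at 586, 468 and 3138 CPM (-2.57, SD 0.23).

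**Figure D4:**
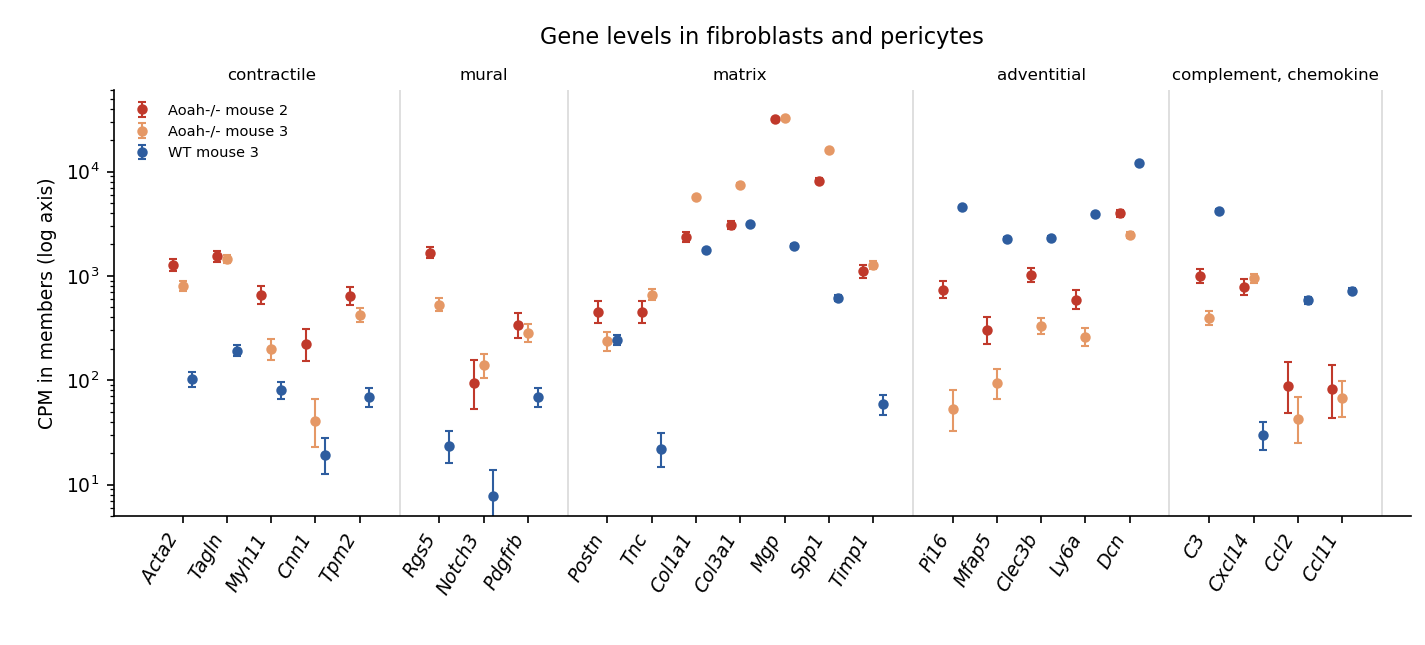
Level of named genes in the members of each library (y axis, CPM on a log axis), grouped by role along the x axis; points are libraries and bars are exact 95% Poisson intervals. Contractile and mural genes, Tnc, Mgp, Timp1 and Cxcl14 are higher in both Aoah-/- libraries, the adventitial genes and C3 are higher in WT, and for Postn WT (242 CPM) lies between 454 and 237 CPM.

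All 12 adventitial genes were lower past 2-fold in the Aoah-/- mean, with a median of -3.18. Pi16, a secreted peptidase inhibitor (chr17:29317680-29330593, plus strand), stood at 737, 52.9 and 4551 CPM (-3.52, SD 2.67). Its Aoah-/- values differed widely, and 1 member of Aoah-/- mouse 2 held 55.6% of the 117 UMIs there. Mfap5, a microfibril protein, stood at 302, 93.2 and 2278 CPM (-3.52, SD 1.19), Clec3b at 1021, 330 and 2318 CPM (-1.78, SD 1.15) and Ly6a at 592, 259 and 3914 CPM (-3.20, SD 0.84). Dpp4, a peptidase of the cell surface, stood at 6.30, 7.56 and 241 CPM (-4.93, SD 0.16). Ly6a and Dpp4 also stood at 734 and 33.1 CPM in the other barcodes of the WT library.

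Complement and chemokine genes followed the same split. Of 8 complement genes past the filter 6 were lower and the median was -1.38. C3, the central component, stood at 1002, 398 and 4229 CPM (-2.59, SD 0.94). In the barcodes counted as mesothelial C3 was also highest in WT, at 41.3, 22.9 and 3171 CPM. So was Dcn, at 14.8, 4.09 and 5826 CPM. That count set no limit on stromal genes, and Col1a1 was found, unthinned, in 0.316%, 2.86% and 31.6% of its cells. The part of stromal cells in these WT values was not tested. C1ra and C1s1, proteases of the C1 complex, stood at 170, 189 and 747 CPM (-2.05, SD 0.11) and 403, 383 and 985 CPM (-1.32, SD 0.05). Of 16 chemokines and cytokines 8 were lower and 6 higher. The monocyte chemokines Ccl2 (88.2, 42.8 and 582 CPM) and Ccl7 (12.6, 47.8 and 430 CPM), the eosinophil chemokine Ccl11 (81.9, 68.0 and 722 CPM), the neutrophil chemokine Cxcl1 (195, 186 and 1111 CPM) and the B cell chemokine Cxcl13 (12.6, 7.56 and 329 CPM) were all lower in both Aoah-/- mice. Cxcl14 (788, 949 and 29.6 CPM) and the membrane-bound chemokines Cx3cl1 (139, 126 and 23.3 CPM) and Cxcl16 (132, 217 and 31.1 CPM) were higher. Cxcl12, a chemokine of stromal niches, stood at 1096, 320 and 215 CPM, and 3 members of Aoah-/- mouse 2 held 99.4% of its UMIs there.

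Of 17 TGF-beta genes 9 were higher and 2 lower, with a median of 1.00. Tgfb1, the ligand, stood at 183, 176 and 16.2 CPM (3.39, SD 0.04), Ltbp2, related to the proteins that store it in the matrix, at 435, 239 and 3.53 CPM (6.22, SD 0.61) and the target gene Ctgf at 599, 199 and 38.8 CPM (3.33, SD 1.12). In members with fewer than 3 adventitial markers Tgfb1 was level, at 151, 191 and 172 CPM (-0.01, SD 0.24), and Ctgf turned, to 346, 218 and 573 CPM (-1.02, SD 0.47). The co-receptor Tgfbr3 was lower at 94.5, 55.4 and 337 CPM. Of 10 Wnt and hedgehog genes 5 were higher and 2 lower, among them the ligand Wnt4 at 145, 368 and 12.7 CPM (4.23, SD 0.95) and the secreted Wnt inhibitor Sfrp2 at 63.0, 55.4 and 532 CPM (-3.15, SD 0.13). Of 3 PDGF genes past the filter, Pdgfra and Pdgfrb took part in choosing the members, and the third, the ligand Pdgfa, stood at 31.5, 85.6 and 2.82 CPM.

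Of 16 stromal transcription factors 7 were higher and 6 lower. Tcf21, a factor of kidney interstitial cells, stood at 227, 476 and 138 CPM (1.34, SD 0.75), but at 160, 481 and 676 CPM (-1.07, SD 1.12) in members with fewer than 3 adventitial markers. Nr2f2 stood at 554, 688 and 69.9 CPM (3.13, SD 0.22) in all members. Klf4 stood at 567, 204 and 1892 CPM (-2.29, SD 1.04), and Osr1 (37.8, 47.8 and 234 CPM) and Ebf2 (31.5, 15.1 and 250 CPM) were also lower. Among 15 retinoid, lipid and hormone genes 4 were higher and 8 lower. The retinoic acid enzymes were opposed, Aldh1a2 at 302, 383 and 10.6 CPM (4.89, SD 0.24) and Aldh1a3 at 25.2, 5.04 and 286 CPM (-4.15). Ptgs2 (cyclooxygenase 2) stood at 6.30, 50.4 and 292 CPM. Of 13 interferon-induced genes 5 were lower and none higher, with Irf7 at 12.6, 25.2 and 215 CPM. Of 16 immediate early genes 2 were higher, the heat shock genes Hspa1a (699, 1418 and 157 CPM) and Hspa1b (365, 904 and 73.4 CPM), and 2 lower, Myc (6.30, 22.7 and 210 CPM) and Atf3 (164, 481 and 845 CPM). Of 6 hypoxia and glycolysis genes only Adm passed 2-fold, at 31.5, 47.8 and 198 CPM. Of 15 cell cycle genes 1 passed the filter, Tubb5 at 536, 388 and 245 CPM, which missed 2-fold.

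**Figure D5:**
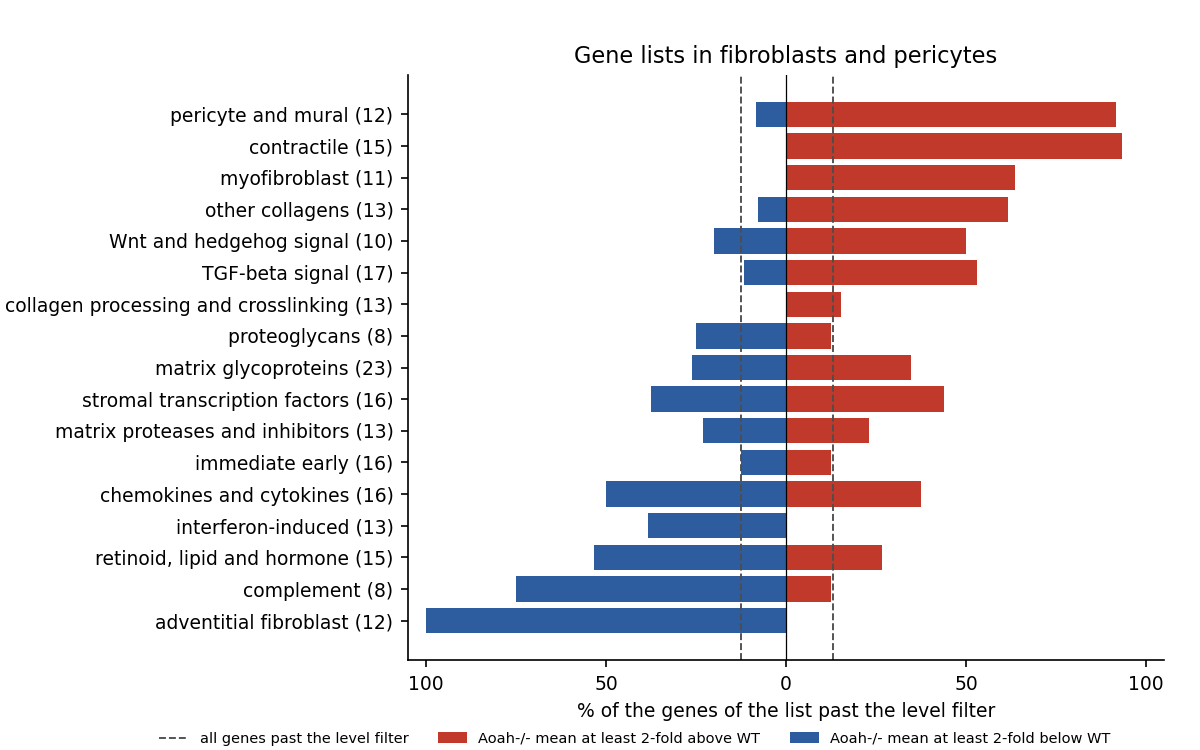
Lists with at least 8 genes past the filter of 50 CPM (their number in brackets) are drawn, without those of other cell types' markers. Bars give the share of a list's genes whose Aoah-/- mean in the members was at least 2-fold above WT (right) or below WT (left), in % on the x axis; dashed lines are the shares over all 3478 genes, 13.1% and 12.4%. Contractile (14 of 15 higher) and mural (11 of 12 higher) lists and the adventitial list (12 of 12 lower) lie farthest from the dashed lines among those drawn, and collagen processing and immediate early genes lie near them.

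Across all genes past the filter, 454 were higher and 433 lower past 2-fold. Among those also raised over the other barcodes, the largest differences upward included Ltbp2, Col8a1, Aldh1a2, Cxcl14, Npr3, Tnc, Enpp1, Ptn, Gpc1, Timp1 and Slc7a2, with log2 values of 6.22 down to 4.23. Npr3, the clearance receptor for natriuretic peptides, stood at 164, 98.2 and 4.23 CPM (4.66, SD 0.52). Ptn, the growth factor pleiotrophin, stood at 428, 647 and 24.0 CPM and Enpp1, which makes pyrophosphate, at 214, 179 and 7.76 CPM.

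The largest differences downward were in genes nearly absent from the Aoah-/- members. Smpd3, a neutral sphingomyelinase, gave 0, 1 and 808 UMIs, Hp (haptoglobin) 0, 1 and 316, Uchl1 (a ubiquitin hydrolase) 0, 1 and 220, and Adgrd1 (an adhesion receptor) 0, 3 and 373. Dmkn and Krtdap, secreted proteins best known from epidermis, gave 227 and 226 UMIs in WT and none in the 2 Aoah-/- libraries, which against a limit of 3 UMIs over both (5.40 CPM) is at least 29.7-fold and at least 29.5-fold higher in WT. On the same basis Sult1e1 (estrogen sulfotransferase) was at least 20.9-fold, Edn1 (endothelin 1) at least 16.2-fold, Zbtb16 at least 13.9-fold, Flrt3 at least 12.9-fold, Akr1c18 at least 11.9-fold and Car8 at least 11.8-fold higher in WT. Sult1e1 and Hp were among the leading genes of subcluster 1, and Akr1c18, Dmkn and Krtdap among those of subcluster 3.

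The 2 Aoah-/- libraries also differed from each other. Esm1 (8 and 0 UMIs), Pi16, Sfrp4, Cd55, Lurap1l and Nsg1 were highest in mouse 2 against mouse 3, and Car3 (0 and 102 UMIs), Thbs4 (0 and 28), Tac2 (0 and 24), C1qtnf3 (0 and 21), Bmp5 (0 and 20) and Ren1 (1 and 71) in mouse 3 against mouse 2. Sfrp4, a secreted Wnt inhibitor, stood at 1512, 139 and 375 CPM, and 3 members held all 240 of its UMIs in mouse 2. With 26 and 65 members, single cells moved such values.

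Many of the differences above were smaller among members with few adventitial markers, or turned there, as given above for Tagln, Myh11, Ctgf and Tcf21. In members with fewer than 3 adventitial markers (20, 60 and 15 cells), Mgp stood at 34964, 34161 and 27768 CPM (0.32), Bgn at 2723, 2979 and 2556 CPM (0.16), Tgfb1 at 151, 191 and 172 CPM (-0.01) and Pdgfrb at 452, 299 and 309 CPM (0.28). Cxcl1 also turned, to 195, 147 and 115 CPM (0.57, SD 0.29). Tnc (514, 725 and 355 CPM) and Cxcl14 (914, 1040 and 481 CPM) remained higher in both Aoah-/- mice, by 0.80 and 1.02 on the log2 scale. For Tnc the intervals of Aoah-/- mouse 2 (391 to 665) and WT (241 to 504) overlapped. Timp1 differed most steadily, at 1401, 1377 and 401 CPM (1.79, SD 0.02). Dcn (683, 1543 and 4343 CPM, -1.96), C3 (17.7, 158 and 596 CPM, -2.75) and Ccl11 (26.6, 33.2 and 218 CPM, -2.82) remained lower. Tnc, Cxcl14 and Timp1 were leading genes of subcluster 2, which held 12, 44 and 5 of all members. The smooth muscle-like subcluster, which lay wholly in this group, held 8, 9 and 6. The mix of subclusters in this group therefore differed by library, and its part in these values was not tested. The WT values of this group rest on 15 cells.

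In members with 3 or more adventitial markers (6, 5 and 198 cells), Dcn stood at 12137, 11831 and 12653 CPM (-0.08), Igfbp6 at 1805, 2704 and 3131 CPM (-0.47) and C3 at 3415, 2845 and 4467 CPM (-0.51). Mgp stood at 23208, 13633 and 259 CPM there (6.15), and Bgn at 2023, 2113 and 214 CPM (3.26). For these genes the order held in this marker group and was close to level among the other members. The mix of subclusters in this group also differed by library. Subclusters 1, 3 and 4 held 99, 49 and 33 WT members, but 1, 0 and 0 members of each Aoah-/- mouse. The part of this mix in the values was not tested. Ccl2 gave 0, 0 and 811 UMIs and Smpd3 0, 1 and 808. Mfap5 (848, 310 and 2423 CPM, -2.06) and Ackr3 (196, 56.3 and 813 CPM, -2.68) also stayed lower. Col1a1, a gene of the rule, was higher, at 2719, 25408 and 1700 CPM (3.05, SD 2.28). Each Aoah-/- value in this group comes from 6 or 5 cells, and its spread between cells is not covered by the counting intervals.

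Genes at the centre of the study were present at low or mixed levels. Spp1 (osteopontin, a secreted matrix protein and cytokine) stood at 8153, 16024 and 610 CPM in the members (4.31, SD 0.69) and at 2317, 2765 and 1615 CPM in all other barcodes. In members with fewer than 3 adventitial markers it stood at 7397, 17581 and 6865 CPM (0.86, SD 0.88), with Aoah-/- mouse 2 close to WT. Its thinned shares of 61.5%, 56.9% and 8.45% of members were not clearly above those in proximal tubule cells (50.2%, 62.7% and 27.3%), so detection alone did not separate members from tubule cells, although 95.6% of the members' 8522 UMIs lay in subcluster 2. Cd74, the invariant chain, stood at 107, 239 and 50.8 CPM, far below its 1514, 1861 and 1289 CPM in other barcodes, and its ligand Mif at 239, 232 and 110 CPM (1.09, SD 0.03). Cd74 was found in 7.69%, 15.4% and 7.51% of thinned members, against 16.4%, 35.6% and 11.0% of thinned proximal tubule cells, so that members did not exceed tubule cells in any library. Of 4 MHC class II genes past the filter, Cd74 among them, 3 were higher and none lower past 2-fold, from which no expression in the members is read.

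RNA of other cells was present at uneven levels. Proximal tubule markers (7 genes) summed to 977, 957 and 767 CPM, mostly Kap, against 20218, 26210 and 34789 CPM in other barcodes. The 4 erythroid markers summed to 69.3, 141 and 5048 CPM, with Hbb-bs the most abundant and 3863 of its 4494 WT UMIs in 3 members. The 8 macrophage markers summed to 69.3, 133 and 40.9 CPM and the 3 neutrophil markers to 25.2, 42.8 and 3.53 CPM. Of 7 endothelial markers 2 passed the filter and both were higher, summing over the 7 to 139, 227 and 9.88 CPM. Emcn (endomucin) gave 9, 54 and 0 UMIs, at least 45.5-fold over the WT limit, and was spread over 6 and 22 members. Plvap, of fenestrated endothelium, gave 13, 22 and 5 UMIs (81.9, 55.4 and 3.53 CPM) over 8, 15 and 5 members. Cdh5 gave 0, 3 and 1 UMIs and Kdr 0, 0 and 1. Pecam1 was limited by the rule. The 6 mesothelial markers summed to 31.5, 15.1 and 71.3 CPM, the 3 Schwann cell markers to 12.6, 32.7 and 0.706 CPM, the 7 T and B cell markers to 44.1, 63.0 and 12.7 CPM, the 7 other tubule markers to 233, 161 and 231 CPM and the 5 podocyte markers to 101, 57.9 and 63.5 CPM. In mouse 2, 1 member held 22 of the 23 Slc12a3 UMIs. The part of these RNAs in the differences was not tested.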

How the data were processed

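Single-cell 3′ libraries of 3 kidneys were analysed. The deposited matrices hold raw UMI counts per gene and barcode made by the authors with Cell Ranger on mm10. The submitters' notes name version 3.1.0, with STAR and Seurat 4.2.0, while the matrix header names 6.1.2. Counts were used as deposited, with the rule's filters (1672 UMIs, 200 genes, 50% mitochondrial UMIs) and no doublet removal.

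UMIs were summed over members per library and expressed as CPM. Intervals are exact 95% Poisson (levels) or Clopper-Pearson (shares). Genes reaching 50 CPM in WT or in the Aoah-/- mean entered the 2-fold rule, which was tried on simulated counts. These held counting error only, without spread between cells or mice, so they do not show how often unchanged genes are called here. The 5 adventitial markers and 35 gene lists came from common knowledge. Named genes were the 25 with the highest ratio to other barcodes, the 12 with the largest difference each way among genes past 2-fold, separated from WT by more than the gap between Aoah-/- mice and at least 2-fold above other barcodes, and 6 each way between Aoah-/- mice, plus listed genes. Subclusters used the Leiden method (1000 variable genes, 15 components, 10 neighbours, resolutions 0.5 and 0.1, chosen after seeing the data; scanpy 1.11.5). Promoters came from RefSeq. Sums over 27998 genes used numpy 2.4.6 and scipy 1.17.1. The members and lists were chosen with earlier results of these data known. Replicates are separate mice, and their labels give no batch. Some genes that met these rules are not reported here.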

Additional observations from a re-analysis of the deposited data

How the results depend on the processing

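No paired analysis was possible, since there was 1 WT mouse and the labels pair no mice. The replicate number 3 that the groups share is not a pairing. The lower share of members in the Aoah-/- mice (-1.36 points) became -2.04 with at most 20% mitochondrial UMIs, -1.01 without the UMI floor, -3.20 without limits on other cell types, -2.12 when the rule was applied after thinning, and -2.93 with proximal tubule cells left out of the denominator. Leaving out 1 Aoah-/- mouse gave -1.44 to -1.27. The Acta2 difference (3.32) became 2.46 and 2.18 with at least 2 or 4 stromal genes and 4.12 with the rule after thinning, and 2.94 to 3.61 without 1 Aoah-/- mouse. The Postn difference (0.51) became -0.03 without Aoah-/- mouse 2 and 0.90 without mouse 3. The difference in members with an Acta2 UMI (19.7 points) became 9.73 with at least 4 stromal genes, and 14.0 to 25.5 without 1 mouse. That for Postn (-8.34 points) became -2.50 without limits, -12.6 with the rule after thinning, -12.9 without the 10% highest Scrublet doublet scores and -30.2 without thinning, and -11.0 to -5.65 without 1 mouse.

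The alternatives that leave out a group of cells were chosen after seeing the data. Without the smooth muscle-like subcluster the Acta2 difference was 1.87 and that in members with an Acta2 UMI 4.87 points. Without the 207 members of the Pi16-high cluster (subclusters 1, 3, 4 and 5), the share difference turned to 0.0796 points, the Acta2 difference was 0.48, and the differences in members with an Acta2 or Postn UMI were -16.7 and -14.7 points. Genes past 2-fold numbered 454 higher and 433 lower, and became 1815 and 2109 without a level filter, 963 and 761 at 20 CPM, and 223 and 278 at 100 CPM. Without 1 mouse they numbered 482 to 624 higher and 451 to 513 lower. Median-of-ratios scaling gave 375 and 550, with the median of all genes at -0.12 in place of 0.07. Without the Pi16-high cluster they numbered 403 and 540. The causes of these shifts were not tested, beyond the cells or genes each setting leaves out. The 26 and 65 Aoah-/- members limit all levels, and with 1 WT mouse genotype, animal and library cannot be told apart.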
